A study of Mus musculus with 12 samples.

Results

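The 9 genes described here encode enzymes that convert farnesyl diphosphate through squalene and lanosterol to cholesterol (Fdft1, Sqle, Lss, Cyp51, Tm7sf2, Msmo1, Nsdhl, Hsd17b7 and Dhcr7). They were chosen by name as the sterol branch of the pathway, and all 9 were among the 11968 genes of the deposited count table. RNA was sequenced from whole livers of C57BL/6J mice, a standard inbred strain, that were 8 to 10 weeks old when the diets began. Mice of both sexes received either chow or the same kind of diet containing simvastatin over 4 weeks, which gave 4 groups (female chow, female statin, male chow and male statin) of 3 livers, each from a different mouse. The simvastatin dose was 0.1 g/kg, which the labels refer to body weight and the study's methods to the food. The study asked how statin acts in females and in males, and the comparisons below are statin against chow within each sex, the difference between the 2 responses, and females against males on each diet.

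Squalene synthase (Fdft1) makes the first compound that is committed to sterols, and squalene epoxidase (Sqle) and lanosterol synthase (Lss) oxidize and close squalene into the first sterol, lanosterol. The remaining enzymes remove methyl groups and move or reduce double bonds until cholesterol is formed. Simvastatin inhibits an enzyme that acts many steps earlier, in the mevalonate part of the pathway, and the genes of the whole pathway are known targets of SREBP-2, a transcription factor that is released from the endoplasmic reticulum when its sterol content is low. In liver this pathway supplies cholesterol for membranes, lipoproteins and bile acids, and a lower sterol supply is known to raise transcription of its genes.

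The sequence just upstream of 3 members is given as examples of the promoter windows that were searched for motifs. RefSeq windows on GRCm38.p6, from 250 bases before to 50 bases after a transcription start, were given for 7 of the 9 genes and were searched on both strands for 4 short motifs. The motif CCAAT, the letters that NF-Y binds, was in at least 1 window of 7 of 7 members, against 37.4% of all 32851 windows and 41.1% of all genes. In Dhcr7 it lay only in the window that begins at chr7:143829964, inside the gene, and not in that at the annotated gene start. The motif GGGCGG, the core of the GC box that Sp1 binds, was also in 7 of 7, against 35.7% of windows and 38.2% of genes. Among 10 other enzymes of the pathway with a window, CCAAT was in 9 and GGGCGG in 8, while CACGTG was in 1. The motif CACGTG, the E-box, was in 2 of 7 (Hsd17b7 and Dhcr7), against 7.15% of windows and 8.09% of genes. The sterol regulatory element core CACNCCAC was in 0 of 7, against 6.24% of windows and 7.12% of genes, and in 2 of the 10 other enzymes, Acat2 and Hmgcs1. A match is a match of letters in a short window, and no binding was measured here. The stretches below are written from 5′ to 3′ on the strand of the gene and end before the annotated start, with CCAAT, read on either strand, in capitals. Nsdhl lies at chrX:72918321-72918520 on the plus strand, Lss at chr10:76531405-76531587 on the plus strand and Hsd17b7 at chr1:169969242-169969405 on the minus strand.
Nsdhl: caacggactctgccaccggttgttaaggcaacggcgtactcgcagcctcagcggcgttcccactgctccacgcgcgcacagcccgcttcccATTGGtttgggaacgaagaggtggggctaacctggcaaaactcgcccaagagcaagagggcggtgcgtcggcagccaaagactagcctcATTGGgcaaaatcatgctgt
Lss: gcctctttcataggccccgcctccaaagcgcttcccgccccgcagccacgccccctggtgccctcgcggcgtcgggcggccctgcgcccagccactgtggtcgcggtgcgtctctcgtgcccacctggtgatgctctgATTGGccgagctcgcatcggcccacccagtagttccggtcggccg
Hsd17b7: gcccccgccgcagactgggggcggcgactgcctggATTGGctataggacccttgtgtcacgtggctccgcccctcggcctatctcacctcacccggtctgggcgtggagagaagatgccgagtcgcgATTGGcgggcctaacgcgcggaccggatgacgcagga
In all 3 stretches the motif lies on the opposite strand and so reads ATTGG. It occurs once in Lss, 62 bases before the RefSeq start, and at 2 places each in Nsdhl and Hsd17b7. Members differed in this, since the matches of Cyp51 and Msmo1 lay on the strand of the gene and those of Dhcr7 on both.

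The 9 genes lie on 9 different chromosomes in the GENCODE vM21 annotation of GRCm38. The genes that make lanosterol are Fdft1 (ENSMUSG00000021273.9) at chr14:63145150-63179578 on the minus strand, Sqle (ENSMUSG00000022351.14) at chr15:59315077-59331192 on the plus strand and Lss (ENSMUSG00000033105.12) at chr10:76531588-76557138 on the plus strand. Those that act on lanosterol first are Cyp51 (ENSMUSG00000001467.5) at chr5:4081145-4104746 on the minus strand and Tm7sf2 (ENSMUSG00000024799.14) at chr19:6062821-6068373 on the minus strand. The carbon 4 enzymes are Msmo1 (ENSMUSG00000031604.10) at chr8:64718139-64733792 on the minus strand, Nsdhl (ENSMUSG00000031349.4) at chrX:72918557-72958514 on the plus strand and Hsd17b7 (ENSMUSG00000026675.12) at chr1:169949535-169969241 on the minus strand. The last member is Dhcr7 (ENSMUSG00000058454.15) at chr7:143823145-143848410 on the plus strand.

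Depth was even, at 46066381 to 60419223 counts per liver. Hepatocyte markers dominated in every liver, since 5 matched markers (albumin, transthyretin, Apoa1, Cps1 and Serpina1c) summed to 77715 to 145881 CPM (counts scaled to the total count of a liver), while Adipoq and Plin1 of adipocytes and Prss2 and Cpa1 of pancreas stayed below 0.1 CPM. The other marker of each list was detected, with Cfd of adipocytes at 0 to 2.58 CPM and Cela1 of pancreas at 5.64 to 16.1 TMM-normalized CPM. Sex-linked transcripts matched the labelled sex in all 12 livers. In bulk RNA, fewer cells of a type and less RNA per cell cannot be told apart. The labels do not say whether livers were collected on 1 day. The p-values set a difference between groups against the spread between these mice.

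For none of the 9 enzymes did the statin and chow livers differ beyond the spread between livers, in either sex. In females the median log2 fold change over the 9 was 0.08 (5 above 0 and 4 below), and in males it was 0.35 (8 above 0 and 1 below), against 0.01 and 0.00 over all genes. In edgeR's quasi-likelihood test across all genes, 0 of 9 passed an adjusted p of 0.05 and 0 of 9 an unadjusted p of 0.05, in females and in males, and DESeq2 gave 0 and 0 in both sexes as well. The chow and statin livers overlapped for 9 of 9 genes in each sex. Over all genes, 0.1% passed the adjusted threshold, 10.5% the unadjusted one and 12% had livers that did not overlap in females. In males these shares were 0%, 1.96% and 7.95%. The summed CPM of 4 lymphocyte markers was 13.4 to 17.9 in female chow and 18.7 to 26.9 in female statin livers, with no overlap. Most of this sum was Ptprc, at 12.3 to 16.3 TMM-normalized CPM in female chow and 17.9 to 23.0 in female statin livers. Cd3e, Cd79a and Nkg7 were at 1.52 CPM or less in every liver, and of them only Cd79a did not overlap between the female diets. The sums of the other cell type lists overlapped between the diets in each sex, as did that of lymphocytes in males. The part of these cells was not tested. The levels below are TMM-normalized CPM, counts scaled to the total of a liver and then between livers. Each gene's values are given for livers 1, 2 and 3 in that order, and fold changes are edgeR's with their standard errors.

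**Figure D1:**
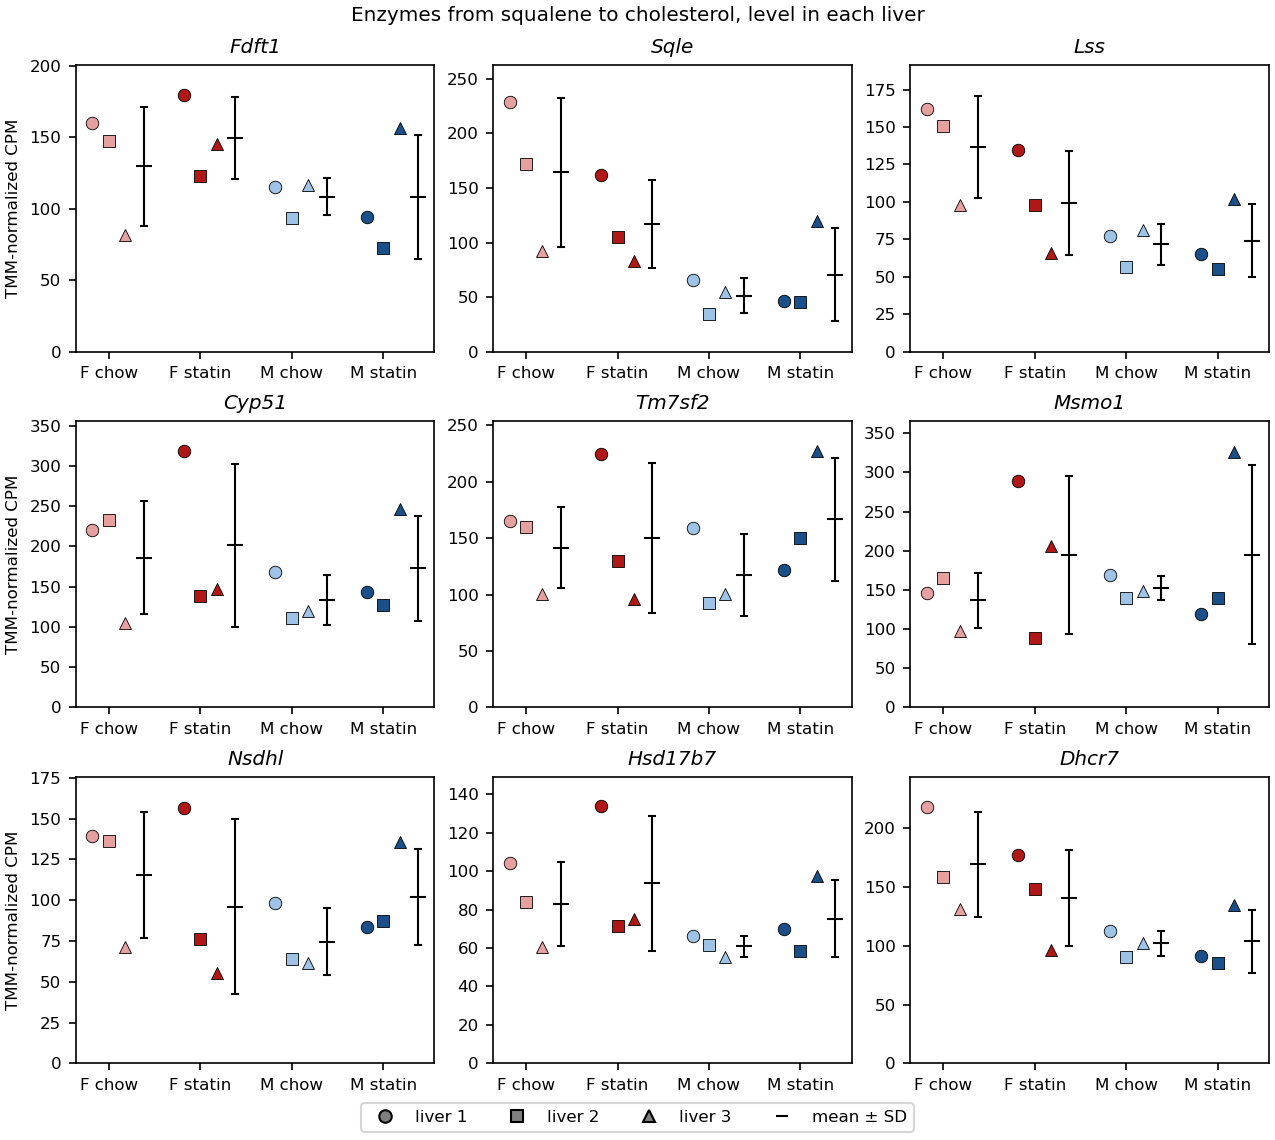
Level of each of the 9 enzymes in every liver, in TMM-normalized CPM from 0, with 1 panel per gene, 1 marker shape per replicate number and the mean ± SD of 3 livers beside each group (F, female, and M, male). Female statin liver 1 and male statin liver 3 are the highest of their groups in all 9 panels and female chow liver 3 is the lowest of its group, while the chow and statin livers of each sex overlap throughout.

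The first 3 enzymes lead to lanosterol. Fdft1, whose product squalene gives the branch its name, stood at 159.7, 147 and 81.8 in the female chow livers and at 179.8, 123 and 146 in the female statin livers. It stood at 115, 93.5 and 116 in male chow and at 94.5, 72.8 and 156 in male statin livers. Only liver 3 of the male statin group lay above the male chow livers, and the log2 fold change was 0.21 (SE 0.29) in females and -0.01 (SE 0.29) in males.

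Sqle, often described as a second rate-limiting step of cholesterol synthesis, was at 229, 172 and 92.1 in female chow and at 162, 105 and 83.1 in female statin livers. In males it was at 65.3, 34.2 and 54.5 on chow and at 46.1, 45.3 and 120.0 on statin. Each female statin liver lay below the middle female chow liver, whereas among male statin livers liver 3 stood apart at 2.65 times the lowest. The log2 fold change was -0.49 in females (SE 0.43, 95% interval -1.42 to 0.43) and 0.46 in males (SE 0.43, 95% interval -0.47 to 1.39). The female value ranged from -0.79 without female statin liver 1 to -0.17 without female chow liver 1. Sqle had the widest range of the 9, 6.68 times between the lowest and the highest of the 12 livers.

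Lss, which closes the ring system of lanosterol, was at 162, 151 and 97.7 in female chow and at 134, 97.9 and 65.5 in female statin livers. The male livers were at 77.2, 56.2 and 81.4 on chow and at 64.9, 55.4 and 102 on statin. Lss had the lowest unadjusted p of the 9 in females (adjusted p = 0.680 in edgeR), with a log2 fold change of -0.46 (SE 0.29), and in males it was 0.05 (SE 0.29). An antisense gene, 4930483K19Rik, overlaps Lss on the other strand, as Ctsb does for Fdft1. The libraries kept strand, but whether the counting used it is not given in the sources used here, so reads of such pairs may not be told apart.

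The next enzymes act on lanosterol. Cyp51, the cytochrome P450 that removes the methyl group at carbon 14, was at 220.5, 233 and 105 in female chow and at 318, 139 and 147 in female statin livers. In males it was at 168, 111 and 120.2 on chow and at 144, 127 and 247 on statin. The highest liver of each statin group was above every chow liver of its sex and the others were not, with a log2 fold change of 0.11 (SE 0.38) in females and 0.37 (SE 0.38) in males.

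Tm7sf2, a reductase of the double bond at carbon 14, was at 165, 159.5 and 100.1 in female chow and at 224, 129.7 and 95.8 in female statin livers. It was at 159, 92.4 and 100.2 in male chow and at 122, 150.5 and 228 in male statin livers. It had the lowest unadjusted p of the 9 in males (adjusted p = 1.00 in edgeR), with a log2 fold change of 0.51 (SE 0.34, 95% interval -0.22 to 1.24), and in females it was 0.08 (SE 0.34). The male value ranged from 0.22 without male statin liver 3 to 0.79 without male chow liver 1. Tm7sf2 shares part of its locus with Vps51 on the same strand, so its counts are uncertain where their exons coincide. Cyp51 overlaps Akap9 on the other strand.

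Removal of the methyl groups at carbon 4 takes Msmo1, Nsdhl and Hsd17b7. Msmo1, the oxidase of that complex, was at 147, 165 and 98.1 in female chow and at 289, 88.0 and 206 in female statin livers. Its male livers were at 169, 139.5 and 149 on chow and at 119, 139.4 and 326 on statin. This was the widest spread within a group, since the highest male statin liver was 2.74 times the lowest and the female statin livers lay still farther apart, while the highest male chow liver was 1.21 times the lowest. The log2 fold change was 0.51 (SE 0.42) in females and 0.35 (SE 0.42) in males. The female value ranged from 0.11 without female statin liver 1 to 0.86 without female statin liver 2.

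Nsdhl, an X-linked dehydrogenase, was at 139.7, 136 and 71.1 in female chow and at 157, 76.2 and 55.2 in female statin livers. It was at 98.3, 63.8 and 61.6 in male chow and at 83.3, 87.0 and 136 in male statin livers. The log2 fold change had opposite signs in the sexes, -0.27 (SE 0.37) in females and 0.45 (SE 0.38) in males, and neither passed the test.

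Hsd17b7, the ketoreductase of the complex, was at 104, 84.0 and 60.6 in female chow and at 134, 71.5 and 75.3 in female statin livers. In males it was at 66.0, 61.5 and 55.2 on chow and at 69.8, 58.5 and 97.5 on statin. The log2 fold change was 0.17 (SE 0.27) in females and 0.30 (SE 0.27) in males.

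Dhcr7, which reduces the last double bond of the ring on the way from 7-dehydrocholesterol to cholesterol, was at 218, 158 and 131 in female chow and at 177, 148 and 96.1 in female statin livers. It was at 112, 90.5 and 103 in male chow and at 91.0, 85.3 and 135 in male statin livers. The female statin livers were lower on average, by a log2 fold change of -0.27 (SE 0.25) that did not pass the test, and the male value was 0.03 (SE 0.25). The female value was -0.030 without female chow liver 1 and -0.46 without female statin liver 1. The 95% interval of Dhcr7 was the narrowest of the 9 in females, at -0.81 to 0.28, which allows a statin level between 0.57 and 1.21 times the chow level.

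The response was not shown to differ between females and males. The interaction, the female response minus the male response on the log2 scale, had a median of -0.29 over the 9 genes, with 2 above 0 and 7 below, against 0.01 over all genes. In edgeR 0 of 9 passed the adjusted and 0 of 9 the unadjusted threshold, against 0% and 8.01% of all genes. The value farthest from 0 was that of Sqle, -0.95 (SE 0.60, 95% interval -2.26 to 0.36), with an unadjusted p of 0.141 and an adjusted p of 0.813 in edgeR. Nsdhl followed at -0.72 (SE 0.53) and Lss at -0.51 (SE 0.41). With 1 liver left out these values ranged from -1.26 to -0.33 for Sqle, from -1.27 to -0.44 for Nsdhl and from -0.79 to -0.21 for Lss. Each was lowest without female statin liver 1, where Nsdhl was at least as far from 0 as Sqle. Those of Sqle and Lss were nearest to 0 without male statin liver 3 and that of Nsdhl without female statin liver 3.

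**Figure D2:**
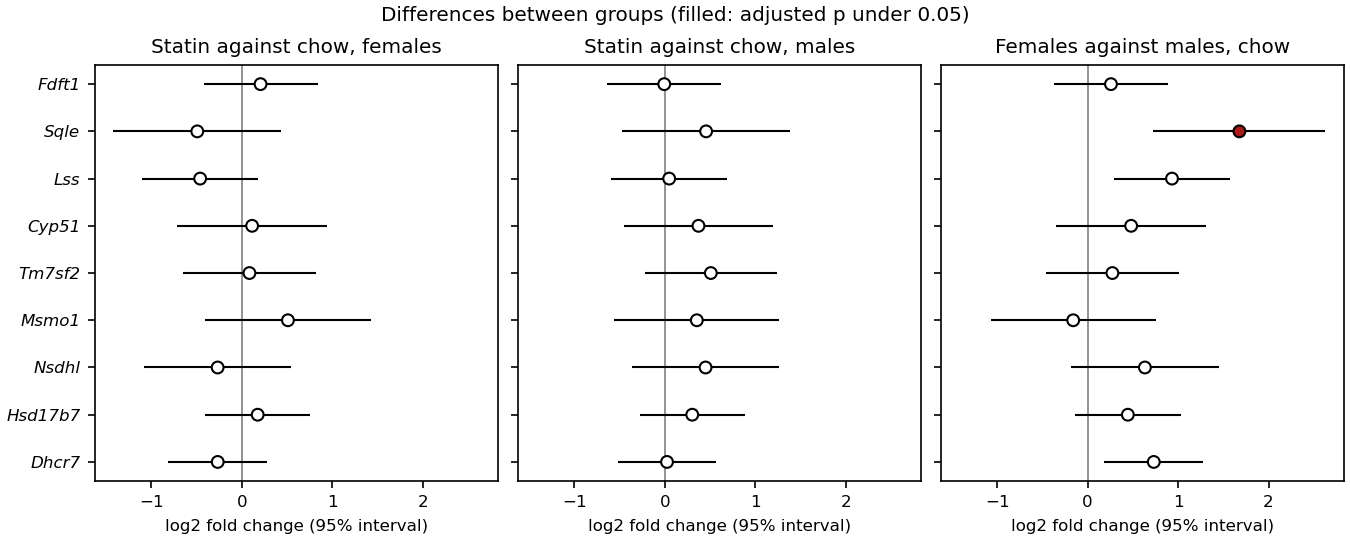
Log2 fold change with its 95% interval from edgeR for the 9 enzymes, for statin against chow in females, statin against chow in males, and females against males on chow; filled points have an adjusted p under 0.05. All 18 statin intervals include 0, and of the sex differences on chow those of Sqle, Lss and Dhcr7 do not, with only Sqle filled.

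On chow, Sqle was higher in females than in males. Its 3 female chow livers (92.1 to 229) lay above the 3 male chow livers (34.2 to 65.3), a log2 fold change of 1.68 (SE 0.44, 95% interval 0.73 to 2.63) with an adjusted p of 0.0302 in edgeR, or 3.20 times. The exact permutation test of 3 against 3 livers, two-sided, gave p = 0.1, the smallest it allows. The call rests on single livers: the adjusted p was 0.118 without female chow liver 1, 0.0884 without female chow liver 2 and 0.0595, 0.107 and 0.0847 without male chow livers 1, 2 and 3, with log2 fold changes of 1.35 to 1.89.

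Lss and Dhcr7 also had female chow livers that lay above the male ones, and their log2 fold changes of 0.93 (SE 0.30, adjusted p = 0.0656) and 0.73 (SE 0.25, adjusted p = 0.0880) did not pass edgeR's adjusted threshold. They passed it in DESeq2, with adjusted p-values of 0.0178 and 0.0380. Of the 9 genes, 8 had a log2 fold change above 0, with a median of 0.48, and Msmo1 was at -0.16 (SE 0.42). One member (Sqle) passed the adjusted threshold, 3 the unadjusted one and 3 had livers that did not overlap. Over all genes these shares were 10.4%, 24.9% and 37.7% on chow, so that the members' counts were near the background. On statin 0 of 9 passed either threshold and 0 of 9 had livers that did not overlap, where the shares over all genes were 6.28%, 19.4% and 19.6%, and the median was 0.32. That median turned to -0.046 without female statin liver 1, and without male statin liver 3 it was 0.59. In the latter fit 4 of 9 enzymes had an unadjusted p under 0.05 in edgeR, the highest number with any 1 liver left out. The share of all genes at that threshold in the same fit was not counted. With all livers Sqle stood at 0.73 (SE 0.43, adjusted p = 0.406 in edgeR). The comparisons of the sexes share their livers with the comparisons of the diets and are not independent of them. The summed CPM of 5 Kupffer cell markers was 403 to 519 in female chow and 220.4 to 353 in male chow livers, and that of 4 stellate cell markers 267 to 336 and 169 to 198. The sum of 4 endothelial markers was also higher in the female chow livers, at 212 to 223 against 143 to 192. Of these markers Clec4g and Pecam1 did not overlap between the sexes on chow, while Stab2 and Kdr did. In the female chow livers the pancreas list had a lower sum, at 7.01 to 8.14 against 9.41 to 15.0. The adipocyte list did too, at 0 to 0.040 against 0.287 to 2.65. The pancreas sum was almost all Cela1 and the adipocyte sum of the male chow livers mostly Cfd, so each difference was mainly that of a single gene. The sums of hepatocytes, cholangiocytes and lymphocytes overlapped. The part of these cells in the sex difference was not tested.

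In 3 of the 4 groups the 9 enzymes shared the highest or the lowest liver, though not the full order. Female chow liver 3 was the lowest of its group for 9 of 9 genes, on average 0.53 below the group mean on the log2 scale. Female statin liver 1 was the highest of its group for 9 of 9, on average 0.58 above it, and male statin liver 3 for 9 of 9, also 0.58 above. In the male chow group liver 1 was the highest for 7 of 9 and liver 2 the lowest for 7 of 9, with average deviations of 0.25 and -0.23. The other places were less alike, since the lowest liver was number 2 for 4 genes and number 3 for 5 in female statin, and number 1 for 3 genes and number 2 for 6 in male statin. The mean log2 level of the 9 genes was 7.06 ± 0.47 (SD, n = 3) in females on chow and 6.98 ± 0.51 in those given statin, with 6.51 ± 0.24 and 6.73 ± 0.50 for the males.

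**Figure D3:**
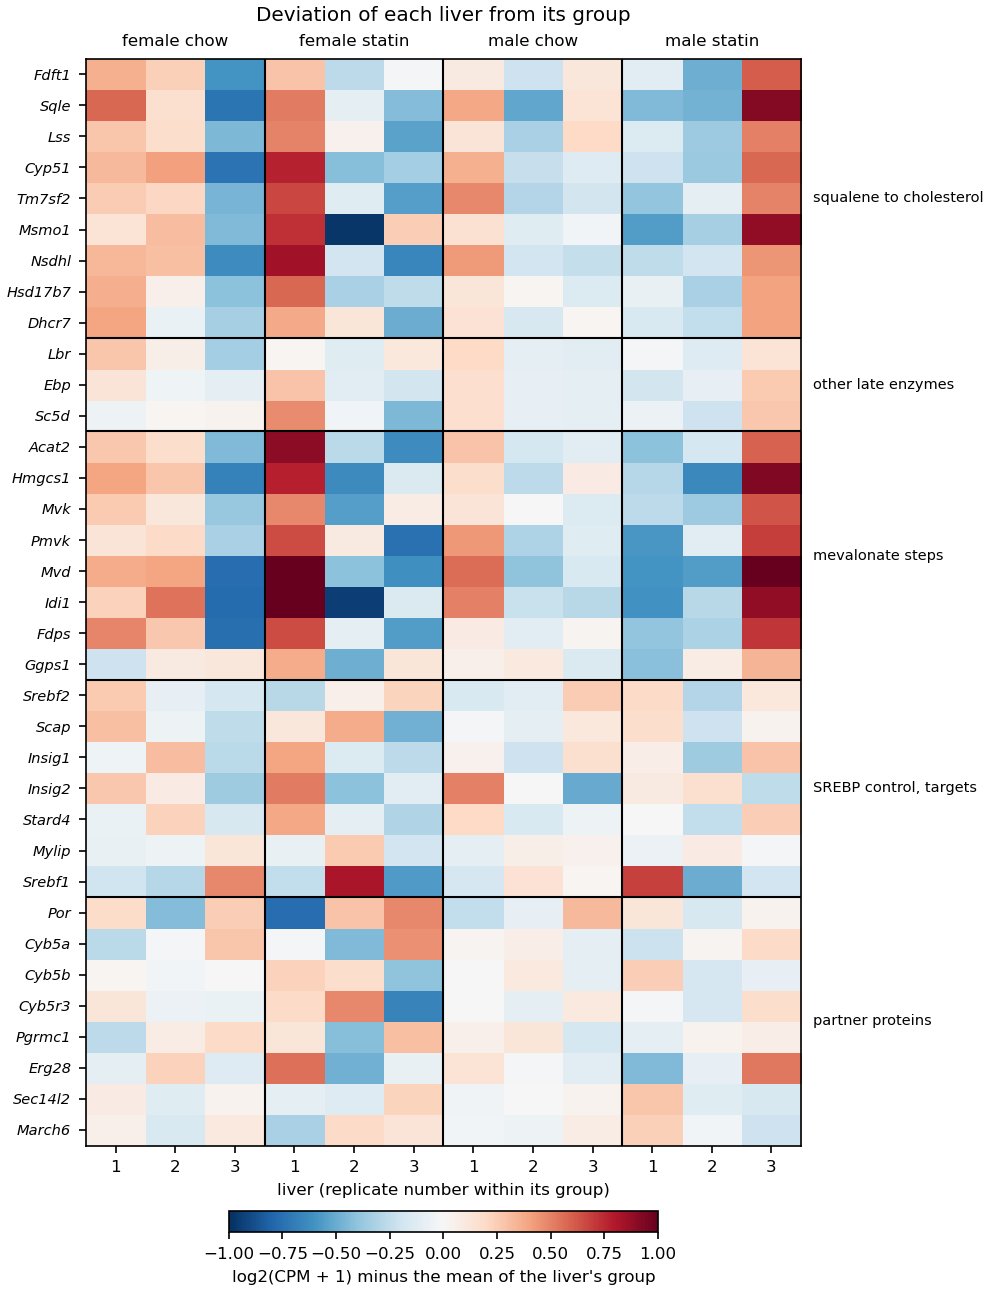
Deviation of log2(CPM + 1) in each liver from the mean of its group, for the 9 enzymes and 4 lists of related genes, with livers 1 to 3 of each group in columns (red, above the group mean; blue, below; the colour scale ends at ±1). All 9 enzymes are red in female statin liver 1 and male statin liver 3 and blue in female chow liver 3, and in 5 of the 12 livers they are of both colours, while the control genes and partner proteins are mixed.

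After the group means were subtracted, the 36 pairs among the 9 genes had Pearson correlations of 0.453 to 0.974 over the 12 livers, with a median of 0.850, and Spearman correlations with a median of 0.815. These correlations rested in part on 3 livers. Without the 2 livers farthest from their group means (female statin 1 and male statin 3), and with the means taken again, the median Pearson correlation was 0.726, with a range of -0.22 to 0.955. Without female chow liver 3 as well it was 0.359, from -0.72 to 0.954, and 29 of the 36 pairs were above 0. These choices were made after seeing the data. The points of these correlations share libraries, so depth and RNA quality are common to all genes of a liver. With the mean of the 9, 0.81% of all genes had a correlation above 0.8, and the median over all genes was -0.04. The spread within groups was large for each member, with an SD on the log2 scale from 0.35 for Dhcr7 to 0.62 for Msmo1, at percentiles 87.5 to 99.0 of all genes. The differences between the 4 groups held 9.15% of the squared deviations of Msmo1 and 61.7% of those of Sqle.

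Leaving out 1 liver turned the direction of the statin comparison for the members as a whole. The female median of 0.08 became -0.38 without female statin liver 1 and -0.17 without female chow liver 3, and ranged up to 0.24 without female statin liver 3. The male median of 0.35 became -0.17 without male statin liver 3 and was 0.26 to 0.55 without any other male liver. Without female statin liver 1, 2 of the 9 genes had an unadjusted p under 0.05 in edgeR and none an adjusted one. The share of all genes at the unadjusted threshold in that fit was not counted.

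**Figure D4:**
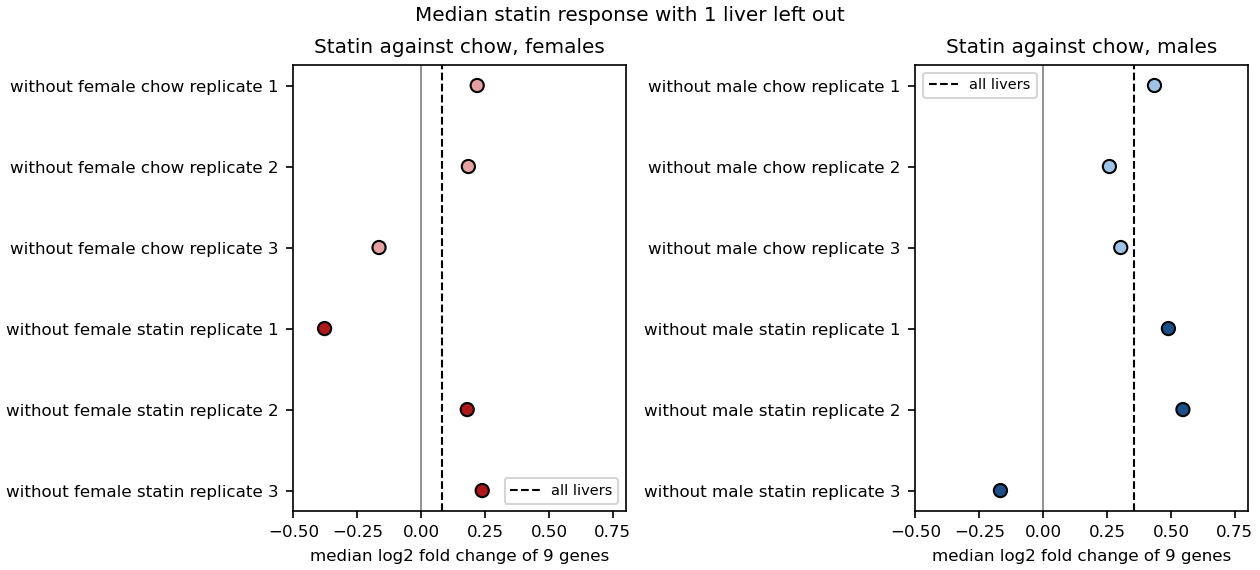
Median log2 fold change of the 9 enzymes for statin against chow with each liver of that sex left out in turn (points, coloured by group) and with all livers (dashed line); the grey line marks 0. The median falls below 0 without female statin liver 1 or female chow liver 3 in females and without male statin liver 3 in males, and lies above 0 in the other 9 cases.

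Properties of the libraries are given here for the same livers. The slope of a liver's log2 deviation on log2 exon length was lowest in female statin liver 1 (-0.11) and male statin liver 3 (-0.09), the livers with the highest enzyme levels of their groups. It was also the lowest of its group in male chow liver 1 (-0.034), which was the highest for 7 of 9 enzymes. In female chow it was 0.042, -0.032 and -0.019 in livers 1, 2 and 3, of which liver 3 had the lowest enzyme levels. The Kupffer marker sum was 659 CPM in female statin liver 1 against 493 and 345 in the other livers of that group, and 232 CPM in male statin liver 3 against 224 and 286. In female chow it was 403 in liver 1, where most enzymes were highest, and 519 in liver 3, where all 9 were lowest. The lymphocyte marker sum, mostly Ptprc, was 26.9 CPM in female statin liver 1, the highest of the 12 livers. In male statin liver 3 it was 13.7 CPM, between 8.63 and 14.2 in the others of that group. The share of counts on mitochondrial genes was 4.89% in female statin liver 1 and 5.65% in male statin liver 3, within 4.02% to 6.12% over all livers. With the length slope as a covariate, an alternative chosen after seeing the data, the median log2 fold change of the 9 for statin was -0.015 in females and 0.28 in males. Over the 12 livers, with the 4 groups pooled, the mean of the 9 had a Pearson correlation of -0.51 with this slope (Spearman -0.57), 0.51 with the stellate marker sum (0.43), 0.51 with the number of genes over 1 CPM (0.34), 0.47 with the Kupffer sum (0.42) and -0.42 with the adipocyte sum (-0.41), given as a description. By Pearson correlation these were the farthest from 0 of 13 measures, and the other 8 were -0.21 to 0.39. By Spearman correlation the albumin share of counts and the hepatocyte sum were at 0.45 each (Pearson 0.28 and 0.26). The adipocyte sum was mostly Cfd in males. The part of these cells and of mitochondrial RNA in the pattern was not tested.

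Levels can be compared between the genes only per length of annotated exon. On that scale, as the mean of the 4 groups in CPM per kilobase, the order rose from Lss (8.85) through Hsd17b7 (15.3), Sqle (18.2), Dhcr7 (22.1), Msmo1 (27.6), Fdft1 (29.3), Tm7sf2 (32.7) and Nsdhl (34.0) to Cyp51 (39.3). The order depended on the group, since Sqle stood at 29.6 in female chow, above Msmo1 (22.2) and Dhcr7 (29.1), and at 9.26 in male chow, below Hsd17b7 (11.9). Neighbours in the pooled order overlapped over the 12 livers in every case, whereas the ends of it did not, with Lss at 5.14 to 15.0 and Cyp51 at 23.8 to 72.1. Lss has the longest annotated exons of the 9, 10787 bases, which lowers its value where some of them are not used in liver.

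The rest of the late pathway was measured too. Of 3 other enzymes between lanosterol and cholesterol (Lbr, Ebp and Sc5d), 0 passed the adjusted and 0 the unadjusted threshold for statin in either sex, and the median log2 fold change was -0.09 for females and 0.05 for males. Sc5d, which introduces the double bond at carbon 5, had the lowest p in females. It stood at 573, 601 and 607 in female chow livers and at 728, 513 and 383 in female statin livers, with a log2 fold change of -0.13 (SE 0.21, adjusted p = 0.944 in edgeR). Ebp, an X-linked isomerase of the double bond at carbon 8, had the lowest p in males. It stood at 239.6, 201 and 200.2 in male chow livers and at 211, 226 and 287 in male statin livers, with a log2 fold change of 0.18 (SE 0.16, adjusted p = 1.00 in edgeR). Female statin liver 1 and male statin liver 3 were the highest of their groups for both genes, as they were for the 9 enzymes.

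Of 8 mevalonate genes (Acat2, Hmgcs1, Mvk, Pmvk, Mvd, Idi1, Fdps and Ggps1), which act between acetyl-CoA and the farnesyl and geranylgeranyl diphosphates, 0 passed the adjusted and 0 the unadjusted threshold for statin in females and in males, with medians of -0.21 and 0.14. Pmvk, phosphomevalonate kinase, had the lowest p in each sex. Its values were 114, 119 and 82.6 in female chow livers and 93.7, 63.0 and 34.8 in female statin livers. In males they were 53.9, 31.8 and 36.5 on chow and 39, 54.5 and 96.1 on statin. The log2 fold change was -0.72 (SE 0.37) in females and 0.63 (SE 0.37) in males. With 1 liver left out it ranged from -1.09 to -0.41 in females and from 0.20 to 0.89 in males. The interaction of -1.35 (SE 0.52) had an unadjusted p of 0.0239 and an adjusted p of 0.503 in edgeR.

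Of 7 genes of SREBP control and its targets (Srebf2, Scap, Insig1, Insig2, Stard4, Mylip and Srebf1), 0 passed the adjusted and 0 the unadjusted threshold for statin in either sex, with medians of -0.14 and -0.04. Insig2, which holds the SREBP carrier in the endoplasmic reticulum, had the lowest p in females, with a log2 fold change of -0.57 (SE 0.28, adjusted p = 0.529 in edgeR), and Mylip, a ubiquitin ligase that sterols induce, in males, at 0.13 (SE 0.14, adjusted p = 1.00 in edgeR). Of 8 partner proteins (Por, Cyb5a, Cyb5b, Cyb5r3, Pgrmc1, Erg28, Sec14l2 and March6), 0 passed the adjusted threshold, while 2 in females (March6 and Cyb5a) and 1 in males (Sec14l2) passed the unadjusted one, against 10.5% and 1.96% of all genes. March6, a ubiquitin ligase that degrades squalene epoxidase, was at 173, 149.6 and 179 in female chow and at 181, 260.5 and 249 in female statin livers. Its log2 fold change in females was 0.46 (SE 0.16, adjusted p = 0.314 in edgeR), and it passed with the length covariate chosen after seeing the data (adjusted p = 0.0289). Cyb5a, cytochrome b5, was at 0.49 (SE 0.22, adjusted p = 0.456 in edgeR) and is named after its value was seen. In males the lowest p was that of Sec14l2, also named supernatant protein factor, which stimulates squalene epoxidation in cell extracts, at -0.37 (SE 0.15, adjusted p = 1.00 in edgeR).

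On chow, 3 of the 26 genes given from these 4 lists (11.5%) passed the adjusted threshold between females and males, near the 10.4% of all genes, and they are named after their values were seen. Pmvk was higher in females by 1.37 (SE 0.38, adjusted p = 0.0370) and Insig1 by 0.80 (SE 0.22, adjusted p = 0.0406) on edgeR's log2 scale. Sec14l2 was lower in females, at -0.58 (SE 0.15, adjusted p = 0.0307 in edgeR). Without a scaling between livers Pmvk and Insig1 had adjusted p-values of 0.0519 and 0.0605. Each of the 3 calls was lost with single livers left out. Without any 1 of the 6 chow livers the adjusted p of Pmvk was 0.0529 to 0.127 and that of Sec14l2 0.0543 to 0.0956, and Pmvk was at 0.0521 without male statin liver 2. For Insig1 it was 0.0778 to 0.170 without any chow liver other than female chow liver 3. With a block for the replicate number the adjusted p was 0.0661 for Pmvk, 0.0689 for Insig1 and 0.0536 for Sec14l2.

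Genes of the mevalonate steps were among those most like the 9 enzymes across the livers. Likeness was the Pearson correlation over 12 livers between a gene's log2(CPM + 1) and the mean of the standardized values of the 9. Among the other genes the values were high for Mvd (0.969), Hmgcs1 (0.931), Nfe2 (0.922), Ebp (0.918), Idi1 (0.898), Fkbp14 (0.897), Fdps (0.896), Lmntd2 (0.872) and Acat2 (0.860). Mvd, Hmgcs1, Idi1, Fdps and Acat2 belong to the list of mevalonate steps and Ebp to the late enzymes, while Nfe2, Fkbp14 and Lmntd2 are in none of the lists. After subtraction of the group means the values were 0.841 to 0.984, and without female chow liver 1 and female statin liver 1 they were 0.756 to 0.958. Mvd, the decarboxylase that makes isopentenyl diphosphate, was at 51.7, 52.5 and 23.0 in female chow livers and at 58.9, 21.3 and 18.3 in female statin livers. In males it was at 25.1, 12.4 and 14.9 on chow and at 13.3, 13.7 and 47.1 on statin. As for the enzymes, female statin liver 1 and male statin liver 3 were at the top of their groups. Other mevalonate genes were less alike, with Pmvk at 0.813, Mvk at 0.733 and Ggps1 at 0.286. By the same measure Srebf2, the gene of SREBP-2 itself, was at 0.235, while March6 was at -0.55 and Sec14l2 at -0.57.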

How the data were processed

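RNA of 12 livers was isolated by the authors with Trizol, and strand-specific mRNA libraries were made with the NuGEN Universal plus mRNA kit. Per the labels, reads were aligned to GRCm38 with STAR 2.4.1a, counted with HTSeq and handled with edgeR 3.28.1. The authors deposited counts per gene in a table named as TMM-normalized and filtered, whose values are raw whole counts (0 of them differed from reads recovered from the CPM), and CPM, each count scaled to the total of its liver, before any filter. The filter of the authors, above 1 CPM in at least 6 livers, was checked and left 11968 of 48526 genes. The depth was 46066381 to 60419223 counts per liver.

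Counts were fitted with edgeR 4.0.16 (quasi-likelihood, TMM, 4 groups in 1 fit, no covariate; R 4.3.3) and p-values adjusted by the Benjamini-Hochberg method over 11968 genes; tests are two-sided. An SE is the absolute log2 fold change over the square root of F. Levels are TMM-normalized CPM, and log2(CPM + 1) was used for correlations. The members, lists and tests were chosen with earlier results of these data known. Named from the lists were the gene with the lowest p in each sex and genes among the 10 most like the members; some genes of the lists and of these 10 are not reported here. Alternatives were DESeq2 1.42.0, limma 3.58.1, other size factors and filters, each sex alone, a replicate block, each liver left out and, added later, a length covariate and, for correlations among the members, 2 or 3 livers left out together. Symbols came from GENCODE vM21 and matched 11949 of 11968 genes. The edgeR script was tested on simulated data.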

Additional observations from a re-analysis of the deposited data

Results flagged for a closer look

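Sec14l2, the supernatant protein factor, met the rule for a response that differs between females and males, because every statin liver lay above every chow liver in females and below every chow liver in males. It stood at 468, 406 and 453 in female chow livers and at 481, 471 and 598 in female statin livers, and in males at 645, 662 and 677 on chow and at 614, 465 and 452 on statin. The interaction on the log2 scale was 0.60 (SE 0.21). Its unadjusted p was 0.0160 and its adjusted p 0.472 in edgeR, so it did not pass the threshold over all genes. In females the lowest statin liver (471) was just above the highest chow liver (468). Over all genes, the livers of the diets did not overlap for 12% in females and 7.95% in males. The share of genes that met this rule was not counted.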

How the results depend on the processing

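For statin in either sex and for the interaction, 0 of 9 enzymes passed the adjusted threshold under each alternative run, and with all livers kept the median over the 9 kept its sign in each comparison except in females, where it was -0.015 with the length covariate added after seeing the data. The number of genes called over the whole table moved more. In females it was 12, and 148 with no filter on low counts, 2 with a stricter filter (10 CPM in 6 livers), 270 in DESeq2, 0 with each sex fitted alone and 427 with the length covariate. In males it was 0, and 4 in DESeq2. For the interaction it was 0, and 103 with no filter, 122 in DESeq2 and 57 with the length covariate. For females against males on chow it was 1250, and 771 with the stricter filter, 1946 in DESeq2 and 3267 with the length covariate, and on statin it was 751, and 356, 1284 and 2253 in the same order. With no filter, 1 enzyme instead of 0 had an unadjusted p under 0.05 in females, in the interaction and between the sexes on statin. The shares of all genes at this threshold with no filter were not counted. On chow 3 enzymes instead of 1 passed the adjusted threshold with no filter, in DESeq2 and with the length covariate. The log2 fold change of Cyp51 in females was -0.015 with the length covariate. That of Fdft1 in males was 0.0099 with DESeq2 size factors and in DESeq2, 0.016 with library size alone, 0.0051 with the stricter filter and 0.0073 with each sex alone, and that of Msmo1 between the sexes on statin was 0.032 with the stricter filter. March6 in females had an adjusted p of 0.0289 with the length covariate. The cause of these shifts was not tested.

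With 1 liver left out, genes called ranged from 0 to 75 in females, from 0 to 14 for the interaction, from 635 to 1586 between the sexes on chow and from 378 to 743 on statin, and stayed at 0 in males. Enzymes at an unadjusted p under 0.05 ranged from 0 to 2 in females and from 0 to 1 in the interaction. Between the sexes they ranged from 2 to 4 on chow and from 0 to 4 on statin. Enzymes at an adjusted p under 0.05 between the sexes on chow ranged from 0 to 2. The shares of all genes at the unadjusted threshold in these fits were not counted. The median of the 9 ranged from -0.38 to 0.24 in females, -0.17 to 0.55 in males, -0.76 to -0.059 for the interaction, 0.33 to 0.76 on chow and -0.046 to 0.59 on statin. Single enzymes crossed 0 in females (Fdft1 -0.033 to 0.39, Cyp51 -0.38 to 0.32, Tm7sf2 -0.32 to 0.34, Nsdhl -0.81 to 0.023 and Hsd17b7 -0.17 to 0.38) and in males (Fdft1 -0.37 to 0.21, Sqle -0.17 to 0.69, Lss -0.25 to 0.22, Msmo1 -0.24 to 0.61 and Dhcr7 -0.21 to 0.15). For the interaction, Fdft1 ranged from -0.037 to 0.58, Cyp51 from -0.76 to 0.090, Msmo1 from -0.26 to 0.75 and Hsd17b7 from -0.48 to 0.10. Between the sexes Msmo1 ranged from -0.32 to 0.025 on chow, and on statin Cyp51 from -0.29 to 0.57, Tm7sf2 from -0.57 to 0.14, Msmo1 from -0.43 to 0.59, Nsdhl from -0.64 to 0.19 and Hsd17b7 from -0.046 to 0.55. Sc5d in females ranged from -0.40 to 0.079, and the 9 correlations of likeness from 0.815 to 0.986.

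Same-numbered livers are different mice and share only a number. Their deviations from the group means had a mean correlation of -0.11 over 18 pairs, from -0.75 to 0.67, against 0.06 over 36 other pairs. With a block for the number, genes called in females were 5 in place of 12, the adjusted p of Sqle on chow was 0.0465, and those of Pmvk, Insig1 and Sec14l2 on chow were 0.0661, 0.0689 and 0.0536.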
